A study of Mus musculus with 21 samples.

Results

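Endothelial cells sorted from brain were compared with endothelial cells sorted from liver by bulk RNA sequencing. The comparison holds 3 brain and 3 liver RNA libraries, 6 of the 21 samples of the series, and takes each library's tissue from the name of its raw-count column. The cells of both groups came from C57BL/6J mice aged 2 to 4 months, and the labels name no genetic change and no treatment in either group. Mice were perfused, their tissues were minced and dissociated with collagenase, dispase and DNase I, and live cells were sorted that were positive for CD31, an adhesion molecule of endothelium, and negative for PDGFRβ, a receptor of pericytes, and for CD45, a protein of blood cells. Myelin was spun out of the brain digest alone, so this step and the tissue cannot be told apart. The labels call the libraries biological replicates and name no animals, so the p-values below rest on the spread between libraries, which may be technical. The series also holds lung endothelium, open chromatin and single brain cells, which are not used here. The title of the study names the profiling of brain endothelial cells, and the comparison gives the transcripts by which they differ from those of liver.

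Brain endothelium forms the blood-brain barrier: its cells are sealed by tight junctions, carry little by vesicles, and move nutrients in and drugs out by dedicated carriers and pumps, a state kept up by Wnt/β-catenin signals from the surrounding tissue. Liver sinusoidal endothelium is perforated by open pores, lies on a sparse matrix, and removes proteins, immune complexes and spent molecules from blood by scavenger receptors and lysosomes. It is also a main source of coagulation factor VIII and sends growth signals to hepatocytes.

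The brain libraries held 15907235, 17938723 and 21792786 counts and the liver libraries 18485600, 25690571 and 23367904. Rn45s, a ribosomal transcript, made up 12.2% to 18.7% of counts in brain and 22.6% to 28.8% in liver, and the nuclear transcript Malat1 6.82% to 7.74% in brain and 1.44% to 3.32% in liver. Pearson correlations of log2 levels across genes, which are not independent replicates, were 0.846 to 0.851 among brain libraries, 0.816 to 0.877 among liver libraries and 0.521 to 0.57 between tissues. Liver library 2 had the lowest correlations with the other liver libraries (0.816 and 0.82) and the fewest genes with a count (12121, against 12793 to 13396 in the other 5 libraries). Levels are given as CPM, the usual depth-scaled count after TMM correction of the library total, and no gene lengths were used, so levels are compared between tissues and not between genes.

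Both groups carried the transcripts that define endothelium. The 18 pan-endothelial genes summed to 14839 to 15966 CPM in brain libraries and 20836 to 26882 CPM in liver libraries. Pecam1, which encodes CD31, had 1056, 823 and 925 CPM in brain, against 718, 764 and 627 CPM in liver, and Cdh5, the endothelial cadherin, had 956, 1076 and 1011 CPM in brain, against 1408, 2059 and 1319 CPM in liver. Neither passed the test (log2 fold changes of brain over liver 0.41 and −0.65, edgeR adjusted p = 0.18 and 0.0534). Of the 18 genes, 5 were called higher in brain (27.8%), or 3 without brain library 1, and 3 lower (16.7%), against 7.31% and 8.61% of all tested genes.

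Transcripts of other cells were present at unequal levels. The 20 hepatocyte markers summed to 47.6, 902 and 325 CPM in brain and to 1063, 723 and 1089 CPM in liver. In brain 15 of the 20 were at 0 counts, albumin (Alb) among them, and almost the whole sum was Ttr, a carrier protein made by hepatocytes and by choroid plexus epithelium, at 41.9, 893 and 321 CPM. In liver Alb stood at 310, 199 and 388 CPM and none of the 20 was at 0. Sorted bulk RNA cannot tell fewer cells of a type from less RNA per cell. The part of hepatocyte RNA in the genes lower in brain was not tested, and some genes that hepatocytes also make are named as such below.

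Choroid plexus transcripts were highest in brain library 2. Kl had 3.94, 54.4 and 10.5 CPM in the brain libraries, Enpp2 119, 546 and 203 CPM and Otx2 0, 7.56 and 0.181 CPM, while Kl and Otx2 were at 0 counts in liver. The 12 genes of the list for bile duct and choroid plexus epithelium, which also holds the water channel Aqp1, summed to 180 to 1528 CPM in brain and 2589 to 2670 CPM in liver. The 14 red cell and platelet genes summed to 51.5, 102 and 378 CPM in brain and 352, 87.0 and 109 CPM in liver. Of 10 tested, 2 were called higher in brain (20.0%) and 4 lower (40.0%). Alas2, a heme enzyme of red cell precursors, had 23.2, 66.2 and 218 CPM in brain, against 9.38, 0.934 and 1.32 CPM in liver, with brain library 3 highest. Its call was lost without brain library 3 or liver library 3, with no filter on low counts and under the replicate block. Gp1ba, a platelet receptor, was at 0 counts in brain and at 59.2, 72.4 and 22.6 CPM in liver. Of 12 tested mural cell genes, 4 were called higher in brain (33.3%) and 1 lower (8.3%). Of 7 tested neuron genes, 4 were called higher (57.1%) and 1 lower (14.3%). Among all tested genes the shares were 7.31% and 8.61%. Some of these calls depended on single libraries. The mural cell count higher in brain was 1 without brain library 3 and 2 without liver library 3. That of neuron genes was 1 without brain library 1 and 2 without brain library 3.

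**Figure D1:**
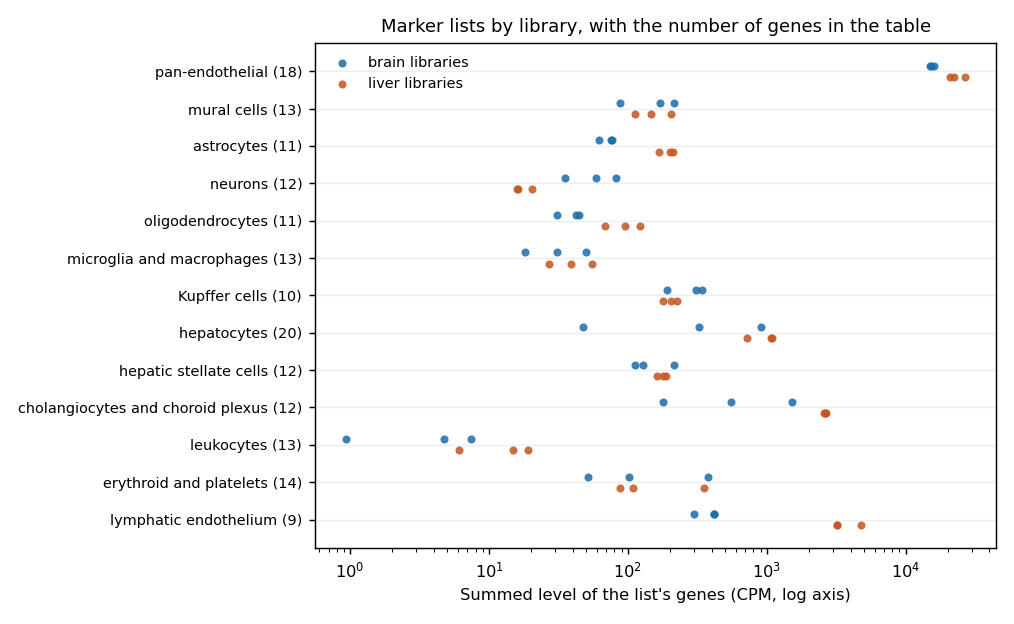
Summed level of each marker list (CPM, log axis) in the 3 brain and 3 liver libraries, 1 point per library, with the number of genes in brackets. Pan-endothelial genes summed to at least 14839 CPM in every library, hepatocyte markers ranged from 47.6 to 902 CPM in brain and from 723 to 1089 CPM in liver, and the lymphatic list, which holds the sinusoid genes Lyve1 and Flt4, lay at 299 to 417 CPM in brain and 3203 to 4742 CPM in liver.

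Mural cell genes summed to 87.2, 169 and 216 CPM in brain and 205, 147 and 113 CPM in liver, and Pdgfrb, the receptor used to gate pericytes out, had 4.91, 3.42 and 12.1 CPM in brain and 0 counts in liver. Neuron genes summed to 35.2 to 81.5 CPM in brain and 15.9 to 20.4 CPM in liver. Leukocyte genes summed to 0.93 to 7.36 CPM in brain and 6.09 to 19.1 CPM in liver. The test called 0 of 5 tested microglia and macrophage genes, 0 of 2 Kupffer cell genes and 0 of 2 leukocyte genes in either direction by edgeR, with 1 microglia gene lower at an unadjusted p under 0.05 and 1 called lower by DESeq2. Without liver library 1, 2 or 3 or brain library 2 the microglia list had 1 gene called higher, without liver library 3 also 1 lower, and without brain library 3 the leukocyte list had 1 gene lower. The 10 Kupffer cell genes summed to 192 to 339 CPM in brain and 179 to 224 CPM in liver, and 6 of them, Clec4f and Vsig4 among these, were at 0 in brain. Almost the whole sum in every library was the iron exporter Slc40a1, whose levels are given below, so the sum says little about Kupffer cells.

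Across the transcriptome the groups differed widely. Of 12049 tested genes, 881 were called higher in brain (7.31%) and 1038 lower (8.61%), 1919 in all (15.9%), at a Benjamini-Hochberg adjusted p under 0.05 in edgeR's quasi-likelihood test with a log2 fold change of 1 or more in size. Brain and liver libraries were fully apart for 1918 of the 1919 called genes, and for 35.2% of all tested genes. The median log2 fold change of all tested genes was 0.009. A log2 fold change of 5 or more in size was reached by 385 genes higher and 456 genes lower in brain. At 0 counts in all liver libraries were 152 of the genes higher in brain, and at 0 counts in all brain libraries 225 of the genes lower in brain. For these genes a lower bound of the fold change took as its floor 3 counts over the 3 libraries of the group at 0 (0.0476 CPM in liver, 0.0509 CPM in brain). It covers counting error alone.

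**Figure D2:**
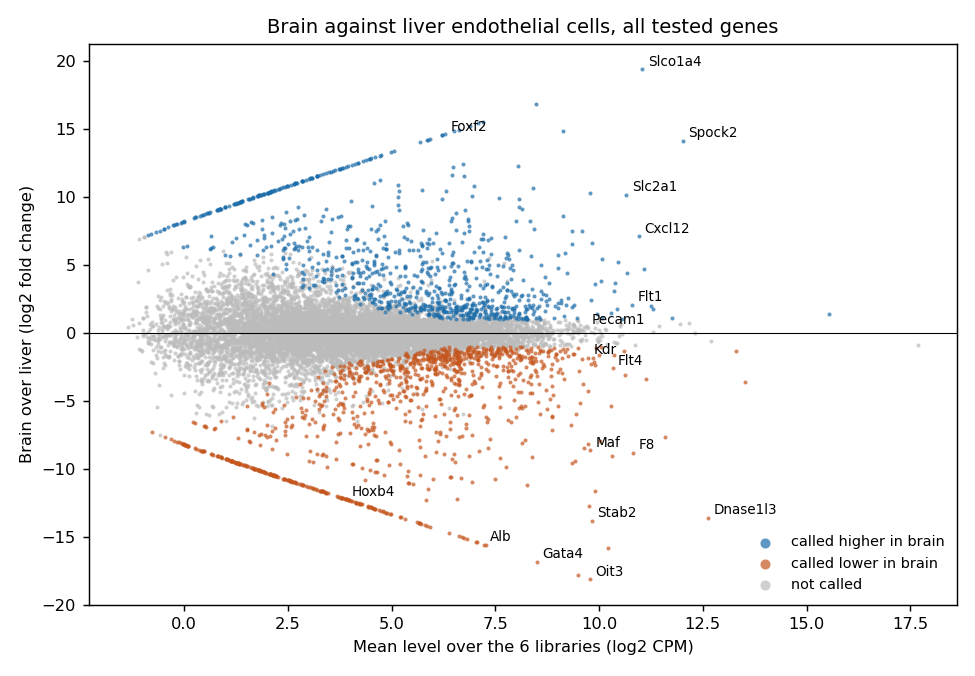
Log2 fold change of brain over liver (vertical) against the mean log2 CPM of the 6 libraries (horizontal) for all 12049 tested genes, coloured by call. The straight edges of points at the top and bottom are genes at 0 counts in 1 tissue, and the 881 genes called higher and 1038 called lower in brain extend past a log2 fold change of 5 in both directions.

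Genes called at a mean log2 CPM of 5 or more, with no overlap, were ranked by fitted log2 fold change. For genes at 0 counts in 1 tissue that value depends on the prior count, so their place ahead of genes with counts in both tissues, such as Spock2, Stab2 and Dnase1l3, is not fixed by the data. Highest by this rank in brain were the organic anion carriers Slco1a4, Slco1c1 and Slc22a8, the glutamate carrier Slc1a1, the junction genes Ocln and Ildr2, the transcription factors Foxf2 and Zic2, the noncoding RNA Fendrr, the receptor gene Tnfrsf19, the retinol gate Stra6 and Plekhh2. Lowest in brain by the same rank were the lectin Clec4g, the Fc receptor Fcgr2b, the scavenger receptor Msr1, the secreted protein Oit3, the transcription factor Gata4, the ligands Rspo3 and Wnt2, the cannabinoid receptor Cnr2 and the prostaglandin-degrading enzyme Hpgd. The same set held Alb, Apob and Serpina1e, products of hepatocytes, of which Serpina1e has near-identical copies that share reads. Oit3 was at 0 counts in brain and at 1852, 1743 and 1681 CPM in liver, at least 34500-fold higher in liver. Tnfrsf19, a receptor of the tumour necrosis factor family, had 222, 227 and 366 CPM in brain against 0 counts in liver and was at least 5710-fold higher in brain. How strand was treated in counting is unknown here, and reads of Fendrr cannot be told from those of an overlapping or antisense gene.

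**Figure D3:**
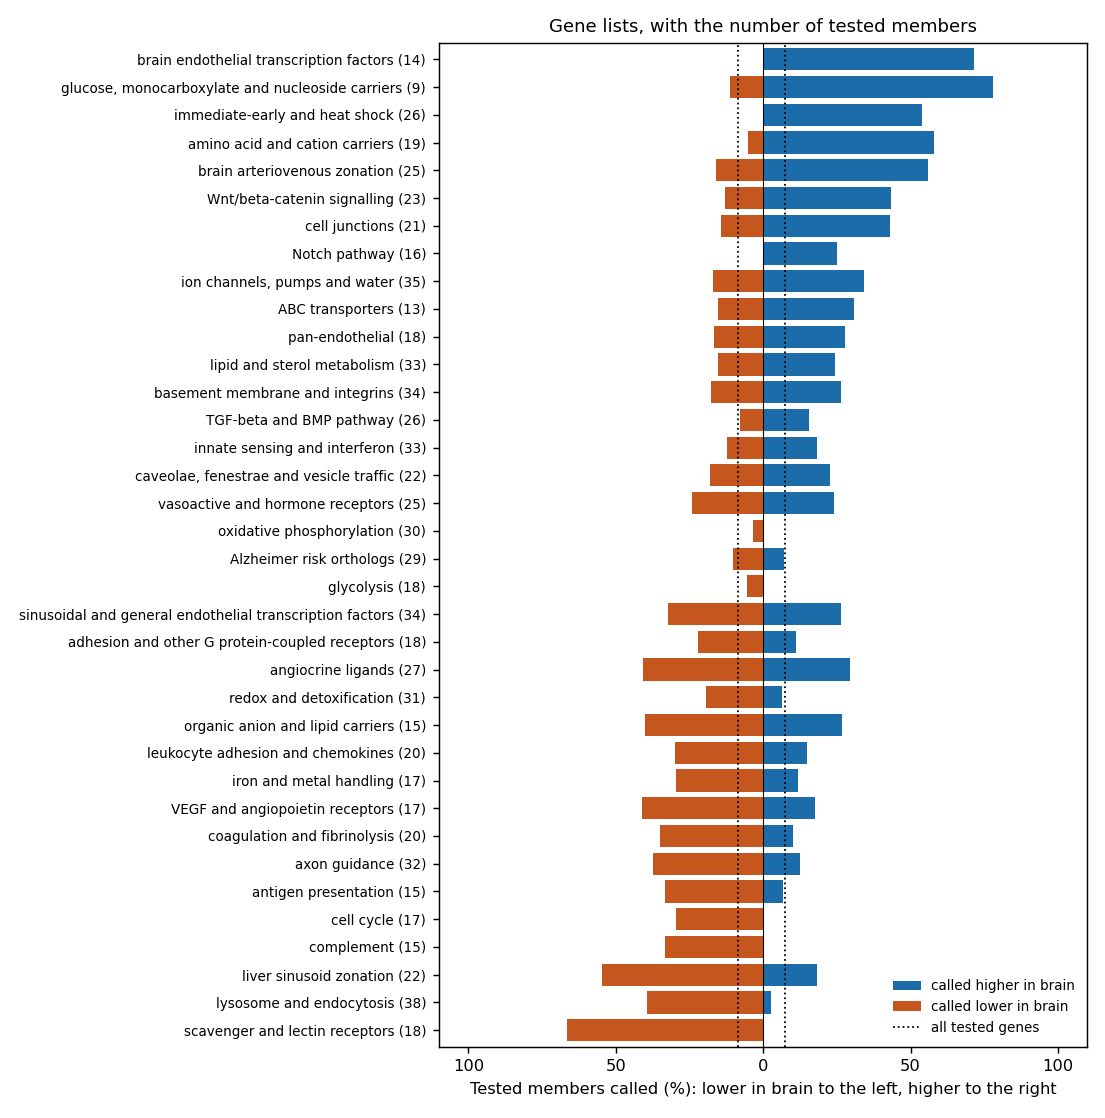
Share of the tested members of each gene list called higher (right) or lower (left) in brain, with the number of tested members in brackets; dotted lines mark 7.31% higher and 8.61% lower among all tested genes. Transcription factors of brain endothelium and carriers of glucose and monocarboxylates lie at the top, scavenger receptors at the bottom. Members that passed the filter on low counts through 1 tissue had to differ, and the tested Hox genes, which all did, are not drawn.

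Fuel and nucleoside carriers were mostly called higher in brain. Of 9 tested members, 7 were called higher (77.8%) and 1 lower (11.1%), against 7.31% and 8.61% of all tested genes. Their median log2 fold change was 5.22. Slc2a1, the glucose carrier of the barrier, had 2507, 3513 and 3650 CPM in brain, against 5.55, 2.07 and 0.826 CPM in liver (log2 fold change 10.17, SE 0.77, edgeR adjusted p = 5.56e-05). Slc16a1, a carrier of lactate and ketone bodies, had 309, 321 and 319 CPM in brain and 4.21, 2.11 and 2.02 CPM in liver, and its chaperone basigin, Bsg, had 2326, 3117 and 2794 CPM in brain and 86.1, 64.8 and 70.1 CPM in liver. The groups of these 3 genes did not overlap, as for 1918 of the 1919 called genes. The nucleoside carrier Slc29a1 was the member called lower, at 24.2, 3.01 and 1.99 CPM in brain and 225, 287 and 184 CPM in liver. Its call was lost with no filter on low counts, and DESeq2 called 2 members lower.

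Carriers of amino acids and cations followed the same direction: of 19 tested, 11 were called higher in brain (57.9%) and 1 lower (5.3%). Among all tested genes the shares were 7.31% and 8.61%, and the median log2 fold change of the carriers was 4.08. The lower count was 2 without liver library 2 and 0 with all 9 libraries in 1 fit. The large neutral amino acid carrier Slc7a5 had 848, 1380 and 1196 CPM in brain and 52.5, 49.9 and 56.6 CPM in liver (log2 fold change 4.43, SE 0.25, edgeR adjusted p = 3.43e-06). The cationic amino acid carrier Slc7a1 had 556, 803 and 686 CPM in brain and 4.42, 2.46 and 3.22 CPM in liver, and the taurine carrier Slc6a6 had 4245, 3761 and 4502 CPM in brain and 204, 143 and 135 CPM in liver. No brain library overlapped a liver library for these genes, which held for 1918 of the 1919 called genes and adds nothing to the calls. Slc1a1, which takes up glutamate, had 312, 326 and 239 CPM in brain against 0 counts in liver and was at least 6150-fold higher in brain. Slc19a3, a thiamine carrier, had 165, 335 and 264 CPM in brain and 8 counts in all in liver (0.431 CPM in liver library 1 and 0 in the others). The zinc carrier Slc39a10 had 2344, 2039 and 1942 CPM in brain and 67.2, 32.7 and 47.4 CPM in liver.

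Organic anion and lipid carriers split by tissue. Of 15 tested, 4 were called higher in brain (26.7%) and 6 lower (40.0%), against 7.31% and 8.61% of all tested genes. Their median log2 fold change was −0.38. Slco1a4, which carries steroid conjugates and drugs, had 4528, 3833 and 4303 CPM in brain against 0 counts in liver and was at least 88800-fold higher in brain. Slco1c1, a thyroxine carrier, had 1173, 1057 and 1139 CPM in brain and 2 counts in liver, a ratio of 35400 with a 95% counting interval of 9800 to 292000. Mfsd2a, which takes up lipids carrying docosahexaenoic acid and restrains vesicle transport, had 112, 160 and 172 CPM in brain and 0.485, 0 and 0 CPM in liver. The prostaglandin carrier Slco2a1, of the same family as Slco1a4, went the other way, with 32.3, 31.4 and 24.7 CPM in brain and 951, 990 and 666 CPM in liver (log2 fold change −4.88, SE 0.27, edgeR adjusted p = 3.01e-06). Among the genes called lower were several of fatty acid handling. The fatty acid receptor Cd36 had 0, 0.104 and 1.76 CPM in brain and 283, 309 and 225 CPM in liver, and Gpihbp1, the anchor of lipoprotein lipase, 0, 0.259 and 0.0905 CPM in brain and 228, 295 and 212 CPM in liver. Fabp5, a fatty acid binding protein, was at 0 counts in brain and at 28.6, 25.2 and 27.8 CPM in liver, at least 534-fold higher in liver.

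Genes of the ABC transporter family were called higher in brain for 4 of 13 tested (30.8%) and lower for 2 (15.4%). Among all tested genes the shares were 7.31% and 8.61%, and the median log2 fold change of the family was 0.56. Abcb1a, the drug pump P-glycoprotein, had 1412, 1201 and 1274 CPM in brain and 9.98, 5.07 and 6.73 CPM in liver (log2 fold change 7.48, SE 0.33, edgeR adjusted p = 7.63e-07). Abcg2, a pump of many drugs, had 226, 230 and 285 CPM in brain and 19.6, 9.2 and 15.4 CPM in liver, and Abcc4, which exports organic anions, 786, 543 and 753 CPM in brain and 193, 169 and 136 CPM in liver. The log2 fold change of Abcc4 was 2.06 (SE 0.24), and the groups of all 3 pumps did not overlap, as for 1918 of the 1919 called genes. Abcg1, a cholesterol exporter, was lower in brain at 38.9, 35 and 60.7 CPM, against 176, 134 and 189 CPM in liver. The other gene called lower, Abcc9, is also on the mural cell list. Its call was lost without brain library 1, 2 or 3, without liver library 1 or 3 and under the replicate block. The lower count was 1 in these fits.

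**Figure D4:**
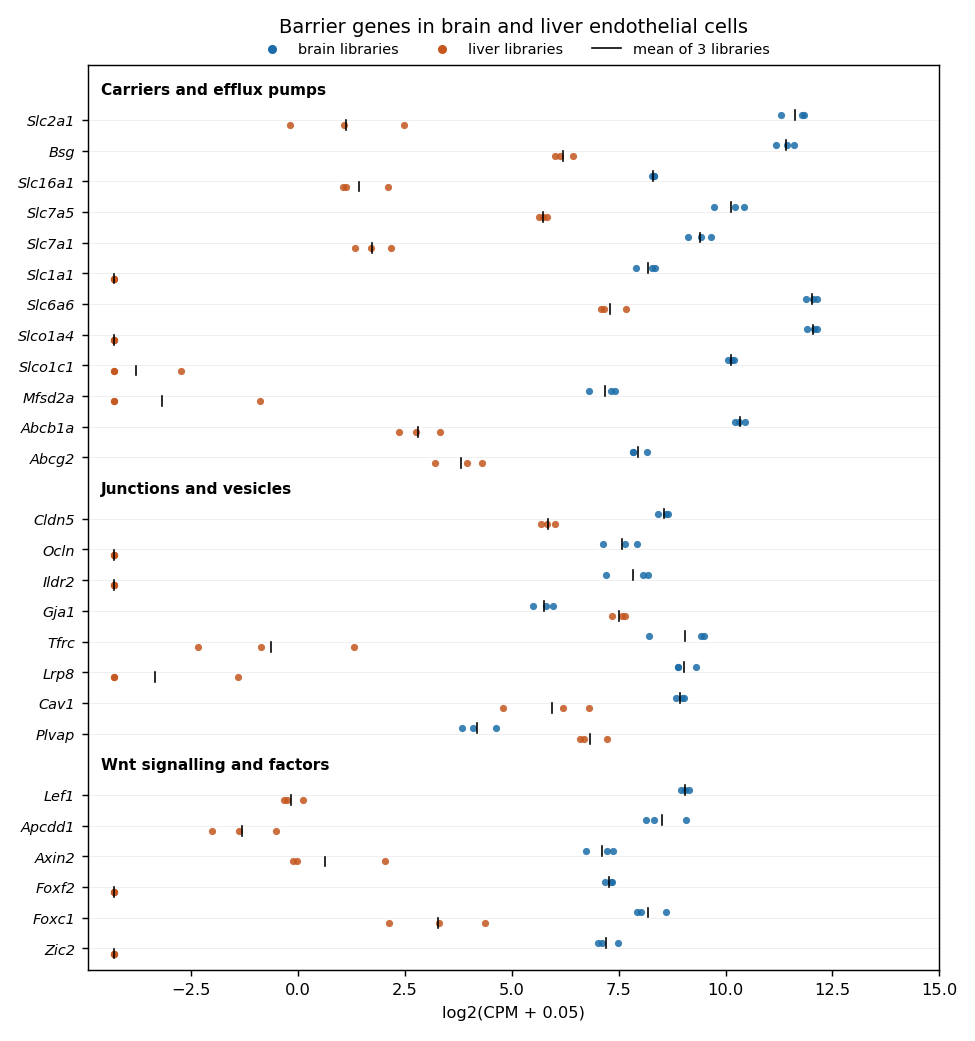
Level of barrier genes in each library, as log2 of CPM plus 0.05, with brain libraries above liver libraries in each row and a bar at the mean of 3 libraries. Points at the far left are libraries with 0 counts, as for Slc1a1, Slco1a4, Ocln, Ildr2, Foxf2 and Zic2 in liver, while Gja1 and Plvap lie higher in liver.

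Junction genes were more often called higher than lower in brain: 9 of 21 tested were called higher (42.9%) and 3 lower (14.3%). Among all tested genes the shares were 7.31% and 8.61%, and the median log2 fold change of the junction genes was 1.12. Ocln, a protein of tight junction strands, had 141, 245 and 202 CPM in brain against 0 counts in liver and was at least 4120-fold higher in brain. Cldn5, the main claudin of the barrier, was present in both beds, at 340, 389 and 399 CPM in brain and 56.8, 51.3 and 64.1 CPM in liver (log2 fold change 2.71, SE 0.24, edgeR adjusted p = 6.04e-05). Ildr2 and Lsr, angulins of the contacts between 3 cells, had 270, 148 and 292 CPM and 163, 148 and 208 CPM in brain, against 0 counts for Ildr2 and 8.95, 0.443 and 0.62 CPM for Lsr in liver. The partner Marveld2 had 23.5, 11.3 and 12.7 CPM in brain and 0.216, 0 and 0.124 CPM in liver. The call of Lsr was lost with no filter on low counts. Pcdh1, a protocadherin, had 412, 530 and 453 CPM in brain and 18.3, 20 and 16.4 CPM in liver. The gap junction genes Gja1 and Gja4 were lower in brain. Gja1 had 61.9, 55.4 and 45.1 CPM in brain and 190, 199 and 162 CPM in liver, and Gja4 15.6, 1.55 and 9.32 CPM in brain and 193, 366 and 113 CPM in liver.

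Genes of caveolae, fenestrae and vesicle traffic were called higher in brain for 5 of 22 (22.7%) and lower for 4 (18.2%). Among all tested genes the shares were 7.31% and 8.61%, and the median log2 fold change of the list was 0.30. Tfrc, which carries iron-loaded transferrin across the barrier, had 720, 296 and 686 CPM in brain and 2.43, 0.148 and 0.496 CPM in liver, and Lrp8, a receptor of apolipoprotein E, 470, 631 and 471 CPM in brain and 0.324, 0 and 0 CPM in liver. The caveola genes Cav1 and Ptrf were higher in brain as well, with 523, 456 and 501 CPM of Cav1 in brain and 73.2, 27.6 and 111 CPM in liver (log2 fold change 2.80, SE 0.44, edgeR adjusted p = 0.00189). Plvap, the diaphragm protein of fenestrae, had 24.5, 14.2 and 16.9 CPM in brain and 149, 96.7 and 102 CPM in liver. Ehd3, an ATPase that shapes endosomal tubules, had the lowest log2 fold change of the group. It had 16.2, 50.2 and 24.8 CPM in brain and 4929, 8601 and 4880 CPM in liver (log2 fold change −7.66, SE 0.52, edgeR adjusted p = 1.54e-05). The clathrin adaptor Dab2 had 263, 388 and 302 CPM in brain and 1379, 1920 and 1479 CPM in liver, and the neonatal Fc receptor Fcgrt 103, 96.3 and 65.1 CPM in brain and 273, 320 and 226 CPM in liver.

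Wnt/β-catenin genes were called higher in brain for 10 of 23 tested and lower for 3, against 7.31% and 8.61% of all tested genes. Their median log2 fold change was 0.44. The lower count was 2 in each fit without 1 library, under the replicate block and with library size alone. Lef1, the nuclear partner of β-catenin, had 533, 499 and 562 CPM in brain and 1.02, 0.787 and 0.743 CPM in liver (log2 fold change 9.28, SE 0.32, edgeR adjusted p = 2.32e-07). Feedback inhibitors that the pathway itself induces were higher too: Axin2 had 149, 107 and 166 CPM in brain and 4.04, 0.934 and 0.867 CPM in liver, and Apcdd1 322, 283 and 539 CPM in brain and 0.647, 0.197 and 0.33 CPM in liver. Notum, an enzyme that inactivates Wnt ligands, had 26.4, 25.6 and 27.2 CPM in brain against 0 counts in liver and was at least 556-fold higher in brain. Of the receptor complex for Wnt7 ligands, Reck had 133, 265 and 291 CPM in brain and 0, 0.197 and 1.98 CPM in liver, while its partner Gpr124 had 107, 143 and 144 CPM in brain and 83.2, 125 and 50.9 CPM in liver and did not pass the test (edgeR adjusted p = 0.347). The coreceptor Lrp6 was lower in brain, at 270, 201 and 257 CPM, against 506, 755 and 634 CPM in liver. The repressor Tcf7l1 was lower as well, at 16.5, 24.7 and 12.6 CPM in brain and 132, 261 and 93.3 CPM in liver. Ctnnb1, β-catenin itself, had 915, 673 and 769 CPM in brain and 469, 816 and 684 CPM in liver, with overlapping groups (log2 fold change 0.26, SE 0.24, edgeR adjusted p = 0.552).

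Transcription factors tied to brain endothelium were called higher in brain for 10 of 14 tested (71.4%, against 7.31% of all tested genes). Members at or near 0 counts in liver, Foxf2 and Zic2 among them, passed the filter on low counts through brain and had to differ. The count and the size of the changes are thus partly set by the filter. By edgeR 0 were called lower, as were 0 at an unadjusted p under 0.05 and 0 by DESeq2, and the median log2 fold change was 7.98, or 7.56 with genes at 0 set to their bound. The forkhead gene Foxf2 had 161, 159 and 145 CPM in brain against 0 counts in liver and was at least 3260-fold higher in brain, and its neighbours in gene order on chromosome 13 were higher with it. Foxq1 had 224, 115 and 194 CPM in brain and 2 counts in liver, a ratio of 5600 with a 95% counting interval of 1550 to 46300, and Foxc1 had 243, 260 and 387 CPM in brain and 9.81, 4.33 and 20.6 CPM in liver. Foxc1 had counts in every liver library. Zic2, a zinc finger factor, had 138, 178 and 129 CPM in brain against 0 counts in liver and was at least 3120-fold higher in brain. Tbx3, a T-box factor, had 180, 219 and 212 CPM in brain and 0.27, 4.23 and 1.4 CPM in liver. Ppard, a lipid-sensing nuclear receptor, had 134, 152 and 102 CPM in brain and 7.66, 29.5 and 15.7 CPM in liver.

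Factors of sinusoidal and general endothelium were called lower in brain for 11 of 34 tested (32.4%) and higher for 9 (26.5%). Among all tested genes the shares were 8.61% and 7.31%, and the median log2 fold change of the factors was −0.75. Gata4, which directs the sinusoidal fate, was at 0 counts in brain and at 492, 1153 and 538 CPM in liver, at least 14300-fold higher in liver. Its relative Gata2, a factor of endothelium at large, was higher in brain at 198, 254 and 268 CPM, against 42.5, 96.3 and 37.5 CPM in liver. Maf had 3.08, 4.46 and 5.7 CPM in brain and 1706, 2223 and 1313 CPM in liver (log2 fold change −8.62, SE 0.37, edgeR adjusted p = 5.89e-07). The homeobox factor Meis2 had 0.628, 0.674 and 0.0905 CPM in brain and 320, 562 and 407 CPM in liver, and its relative Meis1 0.571, 0.155 and 0 CPM in brain and 98.8, 22.6 and 65.4 CPM in liver. Tfec was at 0 counts in brain and at 78.7, 25.7 and 85.5 CPM in liver, at least 1240-fold higher in liver. Factors shared by both beds moved by smaller steps: the venous factor Nr2f2 had 30.8, 26.9 and 18.1 CPM in brain and 294, 196 and 256 CPM in liver, and the flow-induced factor Klf4 428, 471 and 464 CPM in brain and 58, 141 and 56.6 CPM in liver. Foxo1, a factor of endothelial quiescence, had 314, 320 and 321 CPM in brain and 247, 301 and 257 CPM in liver and did not pass the test (log2 fold change 0.24, SE 0.21, edgeR adjusted p = 0.518).

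Hox genes record position along the body axis. Of 40 listed, 30 were in the table and 11 passed the filter on low counts. They passed through liver and so had to differ, and their number and fold changes are no result about the Hox genes as a list. Hoxb4 was at 0 counts in brain and at 12, 31.2 and 46.7 CPM in liver, at least 588-fold higher in liver. Hoxb3 was at 0 counts in brain and at 19.3, 24.9 and 39 CPM in liver, and Hoxa5 0 counts in brain and 18.1, 12.2 and 12.6 CPM in liver. None of these 3 had a count in brain.

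Some called genes adjoined others called the same way in the RefSeq gene order. Among 11432 tested genes that could be placed, 331 of 11411 neighbouring pairs were both called the same way and 105 opposite ways, and 45 runs of 3 or more genes moved the same way, 16 higher and 29 lower in brain. The longest, 15 genes on chromosome 4, held the Mup genes, near-identical copies expressed in hepatocytes that share reads, so their number is uncertain. Runs of 6 held the Hoxb and Hoxa genes. How many runs the shares of called genes alone would give was not tested. Members at 0 counts in brain passed the filter on low counts through liver and had to differ. Among them were Mup3, Serpina1c, Apoa1 and Apoc3, so the runs lower in brain are partly set by the filter. Hepatocyte families made up further runs, such as the 5 Serpina1 genes on chromosome 12 and Apoa1, Apoc3, Apoa4 and Apoa5 on chromosome 9, where Apoa5 lost its call without brain library 3 or liver library 1 and under the replicate block. Higher in brain were Foxq1, Foxf2 and Foxc1 with 1700018A04Rik on chromosome 13 and Zic5 and Zic2 with their neighbours on chromosome 14, where Zic5 lost its call without brain library 2. F2r and F2rl2, receptors cut by thrombin, were lower in brain and adjoin with Iqgap2 on chromosome 13.

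Promoters of genes from both directions are shown because they hold from few to many CpGs. Each is the RefSeq window of 300 bases on build GRCm38.p6, mostly upstream of the gene start, given 5′ to 3′ on the gene's strand with every CpG in capitals. Slco1a4 lies at chr6:141856171-141856470 (minus strand, 1 CpG), Foxf2 at chr13:31625566-31625865 (plus strand, 27), Stab2, the scavenger receptor described below, at chr10:87007893-87008192 (minus strand, 4) and Hoxb4 at chr11:96318017-96318316 (plus strand, 14).
Slco1a4: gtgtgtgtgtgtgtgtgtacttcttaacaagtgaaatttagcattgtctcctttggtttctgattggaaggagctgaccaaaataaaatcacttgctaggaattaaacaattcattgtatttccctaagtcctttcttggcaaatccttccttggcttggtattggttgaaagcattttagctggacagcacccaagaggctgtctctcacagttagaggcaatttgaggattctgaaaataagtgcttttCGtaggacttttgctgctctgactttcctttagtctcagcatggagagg
Foxf2: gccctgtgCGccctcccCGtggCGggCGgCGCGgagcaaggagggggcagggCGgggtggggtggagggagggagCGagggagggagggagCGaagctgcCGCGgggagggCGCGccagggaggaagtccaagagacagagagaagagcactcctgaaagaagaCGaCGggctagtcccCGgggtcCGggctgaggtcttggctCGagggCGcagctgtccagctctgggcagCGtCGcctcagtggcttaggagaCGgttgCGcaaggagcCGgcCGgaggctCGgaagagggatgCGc
Stab2: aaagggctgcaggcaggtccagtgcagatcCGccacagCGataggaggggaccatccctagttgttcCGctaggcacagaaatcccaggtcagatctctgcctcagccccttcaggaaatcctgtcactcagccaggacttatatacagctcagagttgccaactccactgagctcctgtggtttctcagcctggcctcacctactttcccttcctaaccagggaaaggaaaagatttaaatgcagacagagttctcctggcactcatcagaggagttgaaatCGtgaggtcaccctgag
Hoxb4: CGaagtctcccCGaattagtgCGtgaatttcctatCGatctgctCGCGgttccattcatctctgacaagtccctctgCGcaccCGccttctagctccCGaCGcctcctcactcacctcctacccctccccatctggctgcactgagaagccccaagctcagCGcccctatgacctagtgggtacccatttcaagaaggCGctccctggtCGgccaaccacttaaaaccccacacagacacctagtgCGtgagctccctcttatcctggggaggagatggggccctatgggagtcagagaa

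The share of CpG observed over that given by base composition was 0.08 for Slco1a4, 0.79 for Foxf2, 0.19 for Stab2 and 0.59 for Hoxb4. For a gene with more than 1 window the highest share was taken. Over all genes the median was 0.717 for 660 genes higher in brain, 0.654 for 755 lower and 0.805 for 7683 tested genes not called. It was 0.415 for all 27025 genes with a window. Across the lists with 4 or more such genes it ranged from 0.24 to 0.9 for genes higher in brain and from 0.16 to 0.77 for genes lower. Low medians stood in both directions, at 0.24 for 4 genes of innate sensing and 0.36 for 4 organic anion and lipid carriers higher in brain, and at 0.24 for 10 scavenger and lectin receptors and 0.19 for 12 hepatocyte genes lower. High medians did too, at 0.85 for 8 junction genes higher, and at 0.77 for 8 genes of sinusoid zonation and 0.69 for 13 lysosome genes lower. Motif shares count genes with a match in any of their windows. The letters TATAAA on the sense strand were in 8.2% of genes higher in brain, 9.5% of those lower, 4.8% of those not called and 9.8% of all genes with a window. The letters CACCTG, an E box, on both strands were in 27% of genes higher, 20.3% of those lower, 19.3% of those not called and 22.6% of all. AGATAA, the GATA motif, was in 8.5% of genes higher, 10.6% of those lower, 7.5% of those not called and 12.7% of all. CTTTGA, the TCF/LEF motif, was in 14.4%, 14.8%, 14.3% and 18.2% in the same order, and TGTTTAC, the forkhead motif, in 2.6%, 4.0%, 3.1% and 4.1%, each on both strands. No motif contains another, and a match describes letters, not binding.

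Scavenger and lectin receptors were lower in brain for 12 of 18 tested genes of 25 listed (66.7%, against 8.61% of all tested genes). The median log2 fold change was −6.51, or −5.31 with genes at 0 set to their bound. Members at or near 0 counts in brain, Fcgr2b and Msr1 among them, passed the filter on low counts through liver and had to differ. The count and the median are thus partly set by the filter. By edgeR 0 were called higher, with 2 higher at an unadjusted p under 0.05 and 0 by DESeq2, and 1 was called higher when scaled by library size alone. Stab2, which clears hyaluronan and oxidised proteins, had 0.114, 0.259 and 0 CPM in brain and 1787, 1849 and 1803 CPM in liver (log2 fold change −13.81, SE 0.63, edgeR adjusted p = 9.87e-07). Its relative Stab1 kept a level in brain of 25.6, 16.4 and 37.8 CPM, against 479, 661 and 453 CPM in liver. Fcgr2b, which takes up immune complexes, was at 0 counts in brain and at 1202, 1696 and 1388 CPM in liver, at least 28100-fold higher in liver. The lectin Clec4g had 2 counts in all in brain, against 1651, 3814 and 1617 CPM in liver, a ratio of liver over brain of 69600 with a 95% counting interval of 19300 to 574000. The mannose receptor Mrc1 had 1.71, 0.207 and 0 CPM in brain and 1953, 2024 and 1794 CPM in liver, and the hyaluronan receptor Lyve1 3.42, 0.104 and 0.0905 CPM in brain and 631, 948 and 422 CPM in liver. Brain library 1 held the highest trace of Mrc1 and of Lyve1 among the brain libraries. Msr1, macrophage scavenger receptor by name, was at 0 counts in brain and at 238, 148 and 259 CPM in liver.

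Lysosome and endocytosis genes were lower in brain for 15 of 38 tested (39.5%) and higher for 1 (2.6%), against 8.61% and 7.31% of all tested genes. Their median log2 fold change was −1.01. The higher count was 2 without liver library 2, by DESeq2, under the replicate block and with library size alone. Dnase1l3, a secreted nuclease that digests DNA in blood, had 2.97, 0.207 and 0 CPM in brain and 11723, 14957 and 11260 CPM in liver (log2 fold change −13.59, SE 1.54, edgeR adjusted p = 0.000859). Most other steps were far smaller. Lamp2, a lysosome membrane protein, had 168, 182 and 188 CPM in brain and 1379, 944 and 1505 CPM in liver, and Lamp1 280, 238 and 290 CPM in brain and 628, 666 and 625 CPM in liver. The proteases Ctsl, Ctsb and Ctsd had log2 fold changes of −2.83, −2.62 and −1.54 (SE 0.29, 0.34 and 0.30), with Ctsb at 104, 86.1 and 194 CPM in brain and 680, 1005 and 680 CPM in liver. Clta, a clathrin light chain, had 31.5, 29.8 and 36.9 CPM in brain and 123, 156 and 161 CPM in liver. Ctsa, protective protein of the lysosome, was the member called higher in the reported fit, at 684, 880 and 804 CPM, against 45.9, 55.2 and 35 CPM in liver (log2 fold change 4.12, SE 0.26, edgeR adjusted p = 7.27e-06).

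**Figure D5:**
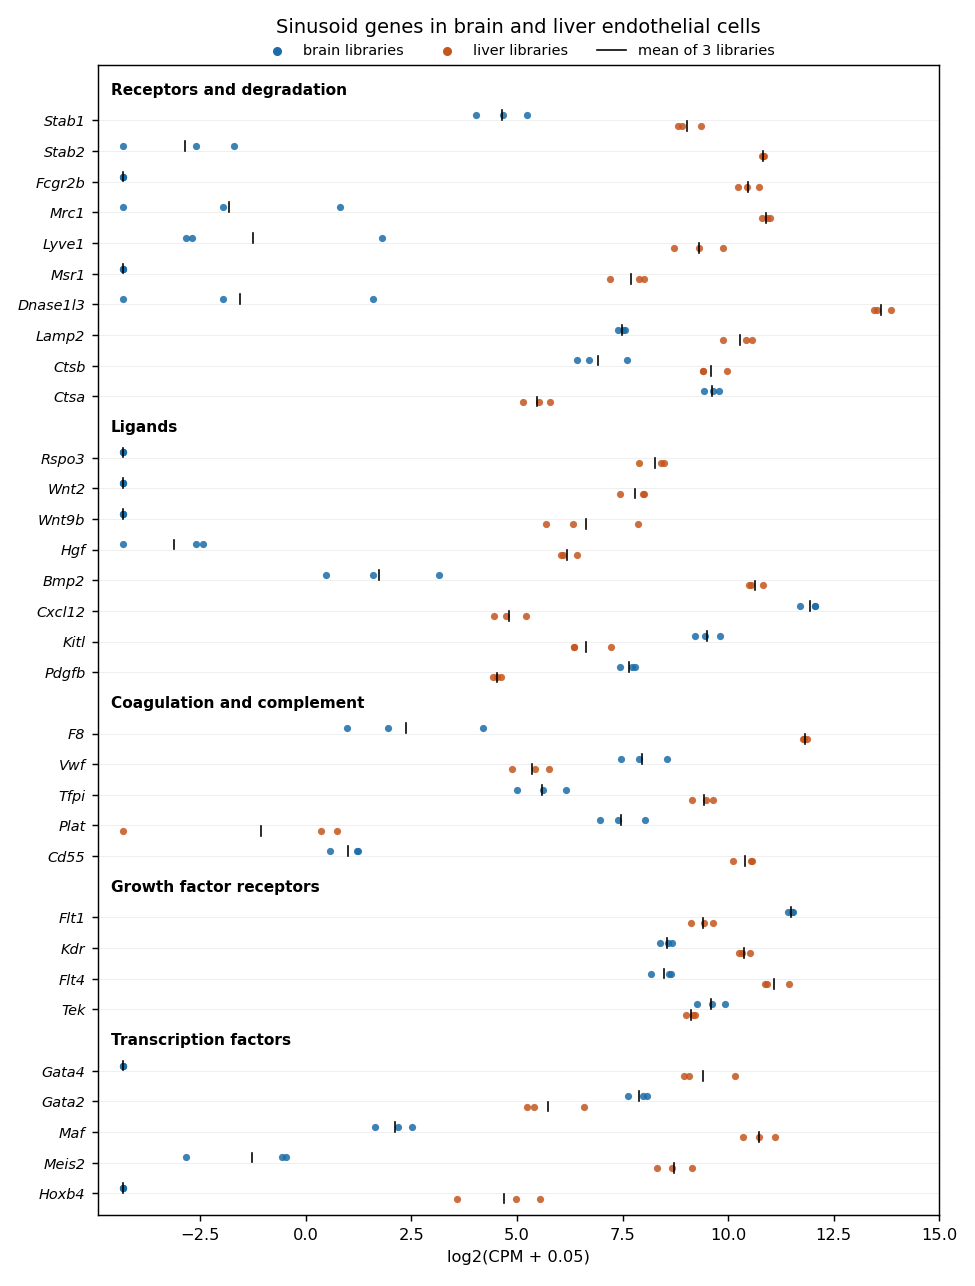
Level of sinusoid genes in each library, as log2 of CPM plus 0.05, with brain libraries above liver libraries in each row and a bar at the mean of 3 libraries. Most genes lie far to the right in liver, whereas Ctsa, Cxcl12, Kitl, Pdgfb, Vwf, Plat, Flt1 and Gata2 lie higher in brain and the brain and liver libraries of Tek lie close together.

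Coagulation genes were lower in brain for 7 of 20 tested (35.0%) and higher for 2 (10.0%), against 8.61% and 7.31% of all tested genes. Their median log2 fold change was −2.30. F8, coagulation factor VIII, had 18.3, 3.78 and 1.9 CPM in brain and 3714, 3521 and 3579 CPM in liver (log2 fold change −8.82, SE 0.98, edgeR adjusted p = 0.000769). Its carrier in plasma, von Willebrand factor, was higher in brain, with 178, 237 and 372 CPM of Vwf, against 42.7, 29.3 and 53.7 CPM in liver. The brakes of clotting Tfpi and Pros1 were lower in brain: Tfpi had 49.1, 71 and 32 CPM in brain and 569, 805 and 709 CPM in liver, and Pros1, which hepatocytes also secrete, 122, 114 and 100 CPM in brain and 456, 460 and 394 CPM in liver. F2r, the main thrombin receptor, had 18.6, 6.53 and 14.3 CPM in brain and 850, 1187 and 739 CPM in liver. Both plasminogen activators changed, in opposite directions. Plat had 126, 260 and 168 CPM in brain and 1.24, 0 and 1.61 CPM in liver (log2 fold change 7.58, SE 1.04, edgeR adjusted p = 0.000835), whereas Plau was at 1 count in brain and 9.98, 4.47 and 33.1 CPM in liver, a ratio of liver over brain of 935 with a 95% counting interval of 168 to 36900.

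Complement genes were called lower in brain for 5 of 15 tested (33.3%, against 8.61% of all tested genes), or 3 without liver library 1. Their median log2 fold change was −2.85. Higher in brain were 0 by edgeR, 0 at an unadjusted p under 0.05 and 0 by DESeq2. Cd55, which dissolves complement convertases on the cell surface, had 1.43, 2.28 and 2.31 CPM in brain and 1520, 1479 and 1103 CPM in liver (log2 fold change −9.41, SE 0.33, edgeR adjusted p = 2.32e-07). Masp1, a protease of the lectin pathway that hepatocytes also make, had 0.0571, 0.104 and 0.0452 CPM in brain and 66.2, 118 and 67 CPM in liver.

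Immune sensing genes went both ways. Of 33 genes of innate sensing and interferon response, 6 were called higher in brain (18.2%) and 4 lower (12.1%). Among all tested genes the shares were 7.31% and 8.61%, and the median log2 fold change of the list was −0.12. The surface proteins Ly6c1, Ly6a and Ly6e were higher in brain, though Ly6c1 may share reads with near-identical copies, with 954, 1320 and 1607 CPM of Ly6c1 in brain and 32, 1.92 and 7.6 CPM in liver. Tlr4, the receptor of bacterial lipopolysaccharide, had 2.28, 7.25 and 15.2 CPM in brain and 71.3, 99.7 and 65.3 CPM in liver, and Ifitm2, which blocks virus entry, 76.4, 81.8 and 88.2 CPM in brain and 1350, 1784 and 1727 CPM in liver. Of 15 antigen presentation genes, 5 were lower in brain (33.3%) and 1 higher (6.7%), with a median of −1.18. B2m, the light chain of MHC class I, had 1147, 814 and 687 CPM in brain and 2052, 2416 and 2121 CPM in liver, and the class I gene H2-D1, whose reads near-identical class I genes may share, 294, 284 and 181 CPM in brain and 614, 955 and 658 CPM in liver.

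Leukocyte adhesion and chemokine genes were called higher in brain for 3 of 20 tested and lower for 6 (median log2 fold change 0.04). Of all tested genes, 7.31% were called higher and 8.61% lower. Cxcl12, the ligand of CXCR4, had 3342, 4229 and 4251 CPM in brain and 21.7, 37 and 26.6 CPM in liver (log2 fold change 7.11, SE 0.28, edgeR adjusted p = 4.14e-07). The sialomucin Cd34 had 435, 480 and 426 CPM in brain and 19.2, 21.1 and 9.33 CPM in liver. Cxcl9, a ligand of CXCR3, was at 0 counts in brain and at 40.4, 72.6 and 54.4 CPM in liver, at least 1100-fold higher in liver. P-selectin, Selp, had 2 counts in all in brain, against 43.2, 152 and 80 CPM in liver, a ratio of liver over brain of 2700 with a 95% counting interval of 747 to 22300. The transmembrane chemokine Cxcl16 had 0.342, 0.104 and 3.53 CPM in brain and 153, 400 and 173 CPM in liver, and the chemokine scavenger Ackr4 0.285, 0.414 and 3.21 CPM in brain and 101, 122 and 92.4 CPM in liver. Icam1, an integrin ligand, had 16.5, 42.9 and 41.4 CPM in brain and 48.6, 30.1 and 50.4 CPM in liver, with overlapping groups (edgeR adjusted p = 0.726).

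Secreted ligands that act on neighbouring cells divided between the beds, with 8 of 27 called higher in brain (29.6%) and 11 lower (40.7%). Among all tested genes the shares were 7.31% and 8.61%, and the median log2 fold change of the ligands was 0.23. Lower in brain were ligands known to act on hepatocytes. Rspo3, which amplifies Wnt signals, was at 0 counts in brain and at 339, 239 and 355 CPM in liver (at least 6110-fold higher in liver), Wnt2 0 counts in brain and 252, 255 and 172 CPM in liver (at least 4450-fold), and Wnt9b 0 counts in brain and 233, 80 and 51.7 CPM in liver (at least 2390-fold). All 3 were at 0 in every brain library. Hepatocyte growth factor, Hgf, had 0.114, 0 and 0.136 CPM in brain and 67.7, 85 and 65.8 CPM in liver, and the BMP ligands that set hepcidin, Bmp2 and Bmp6, 2.97, 1.35 and 8.78 CPM of Bmp2 in brain and 1500, 1815 and 1451 CPM in liver. Higher in brain were ligands that recruit and hold mural cells and progenitors. Pdgfb had 223, 173 and 213 CPM in brain and 21.6, 23.2 and 24.6 CPM in liver (log2 fold change 3.13, SE 0.30, edgeR adjusted p = 8.8e-05). Kitl, stem cell factor, had 902, 597 and 706 CPM in brain and 81.7, 149 and 81 CPM in liver. Tgfb2 had 348, 275 and 327 CPM in brain and 14, 0.492 and 14.6 CPM in liver, a call lost with no filter on low counts. Edn1, endothelin, had 333, 209 and 228 CPM in brain and 25, 9.44 and 32.7 CPM in liver. Kit, the receptor of Kitl, had 0.171, 1.5 and 18.1 CPM in brain and 1057, 1182 and 532 CPM in liver, and its call was lost without liver library 1, 2 or 3 and with no filter on low counts.

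Receptors for VEGF were present in both beds. Of 17 receptors for VEGF, angiopoietin and related factors, 3 were called higher in brain (17.6%) and 7 lower (41.2%). Among all tested genes the shares were 7.31% and 8.61%, and the median log2 fold change of the receptors was −0.80. Flt1, the decoy receptor VEGFR1, had 2724, 2977 and 2903 CPM in brain and 688, 801 and 560 CPM in liver (log2 fold change 2.07, SE 0.18, edgeR adjusted p = 4.57e-05). Kdr, the signalling receptor VEGFR2, had 383, 336 and 408 CPM in brain and 1223, 1464 and 1288 CPM in liver (log2 fold change −1.82, SE 0.18, edgeR adjusted p = 0.00011). Flt4, VEGFR3, had 290, 403 and 389 CPM in brain and 1882, 2800 and 1929 CPM in liver (log2 fold change −2.61, SE 0.23). The coreceptors Nrp1 and Nrp2 were lower in brain with log2 fold changes of −1.95 and −2.39 (SE 0.23 each). The angiopoietin receptor Tek had 968, 617 and 783 CPM in brain and 597, 513 and 571 CPM in liver, a difference that did not pass the test (edgeR adjusted p = 0.159), while its phosphatase Ptprb was lower in brain at 5702, 5408 and 5991 CPM, against 14116, 16868 and 12901 CPM in liver.

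Vasoactive and hormone receptor genes were called higher in brain for 6 of 25 and lower for 6 (24.0% each), against 7.31% and 8.61% of all tested genes. Their median log2 fold change was 0.11. The prostaglandin synthases went opposite ways: Ptgs2 had 38.1, 51.4 and 44.3 CPM in brain against 0 counts in liver and was at least 938-fold higher in brain, and Ptgs1 5.59, 6.99 and 26.3 CPM in brain and 623, 467 and 529 CPM in liver. Igf1r, the receptor of insulin-like growth factor, had 3043, 3020 and 3261 CPM in brain and 145, 155 and 145 CPM in liver (log2 fold change 4.39, SE 0.17, edgeR adjusted p = 3.99e-07). The cytokine receptor pair Il6st and Lifr was lower in brain, with 387, 286 and 338 CPM of Il6st in brain and 2554, 3369 and 2569 CPM in liver, and 339, 391 and 458 CPM of Lifr in brain and 3659, 5107 and 3419 CPM in liver. Insr, the insulin receptor, had 702, 832 and 768 CPM in brain and 625, 361 and 426 CPM in liver and did not pass the test (edgeR adjusted p = 0.0701). Nos3, the endothelial nitric oxide synthase, had 84.1, 95.1 and 125 CPM in brain and 42.9, 47.9 and 48.5 CPM in liver (log2 fold change 1.13, SE 0.34, edgeR adjusted p = 0.0482). Its call was lost in the fit without any 1 of the 6 libraries, with RLE factors, with no filter on low counts, with all 9 libraries in 1 fit and under the replicate block.

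Among 18 further G protein-coupled receptors, 2 were called higher in brain (11.1%) and 4 lower (22.2%), against 7.31% and 8.61% of all tested genes. Their median log2 fold change was 0.15, and the higher count was 1 without brain library 2 or 3 or liver library 3. S1pr1, the sphingosine 1-phosphate receptor that tightens junctions, had 698, 1320 and 1120 CPM in brain and 204, 112 and 224 CPM in liver. The chemokine decoy receptor Gpr182 had 10, 2.69 and 4.71 CPM in brain and 1771, 1753 and 1574 CPM in liver, and the cannabinoid receptor Cnr2 0 counts in brain and 186, 222 and 210 CPM in liver, at least 4040-fold higher in liver.

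Axon guidance genes, many of which also steer vessels, were called lower in brain for 12 of 32 (37.5%) and higher for 4 (12.5%). Among all tested genes the shares were 8.61% and 7.31%, and the median log2 fold change of the list was −0.90. The semaphorin Sema3c had 569, 494 and 546 CPM in brain and 1.13, 0 and 0.62 CPM in liver, and Sema7a 395, 510 and 412 CPM in brain and 8.95, 6.59 and 9.25 CPM in liver. Sema3d had 0, 0.622 and 0 CPM in brain and 95.2, 164 and 76.3 CPM in liver, and Plxnc1, the receptor of Sema7a, 1.71, 3.47 and 19.3 CPM in brain and 1920, 2596 and 1650 CPM in liver (log2 fold change −7.97, SE 1.02, edgeR adjusted p = 0.00164). Plxnd1, a vascular semaphorin receptor, was lower in brain with a log2 fold change of −1.72 (SE 0.28). Sema3c and Sema7a were thus high in every brain library, and Sema3d in every liver library.

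Matrix and integrin genes were called higher in brain for 9 of 34 (26.5%) and lower for 6 (17.6%), against 7.31% and 8.61% of all tested genes. Without brain library 3 the lower count was 3, and the median log2 fold change in the reported fit was 0.11. Spock2, a secreted proteoglycan, had 7019, 8284 and 9695 CPM in brain and 0.431, 0.344 and 0.578 CPM in liver (log2 fold change 14.14, SE 0.31, edgeR adjusted p = 1.37e-08). Fibronectin, Fn1, had 1599, 1826 and 1965 CPM in brain and 20.1, 8.65 and 27 CPM in liver, and Sparcl1, an adhesion-modulating matrix protein, 907, 1064 and 1078 CPM in brain and 20.2, 19 and 17.6 CPM in liver. Nid1, which links laminin to collagen IV, was lower in brain at 133, 156 and 159 CPM, against 969, 956 and 837 CPM in liver. Laminin receptor chain Itga6 had 652, 667 and 488 CPM in brain and 83, 65.5 and 46.6 CPM in liver, whereas Itga9 had 5.08, 9.07 and 21.9 CPM in brain and 628, 889 and 749 CPM in liver. Col4a1, the core chain of basement membranes, had 377, 336 and 379 CPM in brain and 462, 469 and 372 CPM in liver, with overlapping groups (log2 fold change −0.25, SE 0.20, edgeR adjusted p = 0.487).

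Of 16 Notch pathway genes 4 were called higher in brain (25.0%, against 7.31% of all tested genes, median log2 fold change 0.92), and lower were 0 by edgeR, 0 at an unadjusted p under 0.05 and 0 by DESeq2. The ligands Jag1 and Jag2 had 137, 81.4 and 164 CPM and 79.1, 118 and 114 CPM in brain, against 23.8, 4.97 and 9.71 CPM and 0.377, 0.59 and 2.11 CPM in liver. The target Hey1 had 120, 109 and 104 CPM in brain and 3.88, 7.77 and 2.85 CPM in liver, while the receptor Notch1 had 369, 510 and 447 CPM in brain and 414, 408 and 383 CPM in liver (edgeR adjusted p = 0.74). Of 26 TGF-β and BMP genes 4 were called higher (15.4%) and 2 lower (7.7%), against 7.31% and 8.61% of all tested genes (median 0.35), the lower count being 1 without brain library 1 or liver library 2 and with library size alone. The receptor Acvrl1 had 188, 183 and 159 CPM in brain and 44.9, 19.5 and 12.8 CPM in liver, and the target Id1 88.9, 97.2 and 159 CPM in brain and 5.23, 7.62 and 13.5 CPM in liver.

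Ion, water and pH genes were called higher in brain for 12 of 35 (34.3%) and lower for 6 (17.1%), against 7.31% and 8.61% of all tested genes. Their median log2 fold change was 0.60. Car4, a carbonic anhydrase on the surface of capillaries, had 198, 176 and 151 CPM in brain and 3 counts in liver, a ratio of 3680 with a 95% counting interval of 1260 to 17800. The lipid flippase Atp10a had 517, 445 and 552 CPM in brain and 1.13, 0.639 and 3.22 CPM in liver. The water channel Aqp1 had 0.457, 1.87 and 11.9 CPM in brain and 2571, 2532 and 2549 CPM in liver (log2 fold change −9.06, SE 1.22, edgeR adjusted p = 0.00203).

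Lipid and sterol genes were called higher in brain for 8 of 33 (24.2%) and lower for 5 (15.2%), against 7.31% and 8.61% of all tested genes. Their median log2 fold change was 0.56. The higher count was 4 without brain library 1 and 5 without brain library 2 or 3 or liver library 1 or 3. Pltp, which transfers phospholipids between lipoproteins, had 202, 260 and 272 CPM in brain and 0.431, 0 and 0.248 CPM in liver. Cyp26b1, which degrades retinoic acid, had 17.1, 15.5 and 2.26 CPM in brain and 809, 1230 and 1739 CPM in liver (log2 fold change −6.76, SE 0.79, edgeR adjusted p = 0.000607). Apoe, which hepatocytes also secrete, had 64.6, 83.4 and 122 CPM in brain and 387, 626 and 539 CPM in liver, beside 723 to 1089 CPM of hepatocyte markers.

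Detoxification and iron genes were more often called lower than higher in brain. Of 31 redox genes, 2 were called higher (6.5%) and 6 lower (19.4%), or 3 lower without brain library 3. Among all tested genes the shares were 7.31% and 8.61%, and the median log2 fold change of the redox genes was −1.35. Gsta4, which conjugates lipid aldehydes, had 41, 65.5 and 49.8 CPM in brain against 0 counts in liver and was at least 1100-fold higher in brain, and Maoa, a monoamine oxidase, 225, 152 and 143 CPM in brain and 0.431, 0.344 and 0.909 CPM in liver. Sepp1, the selenium carrier selenoprotein P, also a hepatocyte product, had 1407, 1672 and 2198 CPM in brain and 18873, 28427 and 17856 CPM in liver. Of 17 iron genes, 2 were called higher (11.8%) and 5 lower in brain (29.4%), with a median of −1.52 and 8 lower by DESeq2. Besides Tfrc, the ferroxidase Cp was higher in brain, at 323, 291 and 250 CPM, against 25.6, 17.4 and 29.5 CPM in liver. The ferritin light chain Ftl1 had 64.2, 115 and 104 CPM in brain and 413, 980 and 430 CPM in liver, and transferrin, Trf, itself a hepatocyte marker, 2.11, 1.14 and 0.679 CPM in brain and 45.6, 53.2 and 33.1 CPM in liver. The iron exporter Slc40a1 had 339, 308 and 189 CPM in brain and 171, 218 and 193 CPM in liver, with overlapping groups (edgeR adjusted p = 0.268).

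Genes that mark positions along the vessels were listed for each organ. Of 25 genes of arteriovenous zonation in brain, 14 were called higher in brain and 4 lower (median log2 fold change 3.96). The arterial genes Gkn3 and Bmx had 12, 7.67 and 28.4 CPM and 38, 33.7 and 26.2 CPM in brain, against 0 counts and 0.377, 0 and 1.2 CPM in liver, and the venous amino acid carrier Slc38a5 had 32.1, 58.3 and 27.9 CPM in brain against 0 counts in liver and was at least 830-fold higher in brain. Of 22 genes of zonation along the sinusoid, 12 were called lower in brain (54.5%) and 4 higher (18.2%), with a median of −2.69. The shares of all tested genes were 8.61% and 7.31%. Members at 0 counts in brain, Wnt2 and Rspo3 among them, passed the filter through liver. Both counts are thus partly set by the filter. Adam23, a disintegrin, had 0.799, 0 and 0 CPM in brain and 1752, 2247 and 1173 CPM in liver, and Lhx6, a homeobox factor, 12.8, 2.54 and 25.9 CPM in brain and 188, 217 and 140 CPM in liver. The lists share genes with those above, among them Mfsd2a, Tfrc, Wnt2, Rspo3 and Kit.

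Relatives within a family were set side by side in 30 tested pairs. In 11 pairs both members were called the same way, in 12 pairs 1 member was called, in 3 neither was, and in 4 the members were called in opposite ways: Gata4 and Gata2 (log2 fold changes −16.85 and 2.03), Flt4 and Flt1 (−2.61 and 2.07), Slco1a4 and Slco2a1 (19.39 and −4.88) and Itga6 and Itga9 (3.21 and −5.97). The values for Gata4 and Slco1a4 are fitted ones against 0 counts and depend on the prior count. Ehd3 and Ehd4 had log2 fold changes of −7.66 and 0.48, and only Ehd3 was called, though the difference between relatives was not tested.

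Mouse orthologs of Alzheimer's disease risk genes, which the study's title names, were called at shares near those of all genes. Of 29 tested, 2 were called higher in brain and 3 lower, or 6.9% and 10.3%, against 7.31% and 8.61% of all tested genes, with a median log2 fold change of 0.01. Cd2ap, an actin adaptor, had 727, 465 and 703 CPM in brain and 202, 204 and 205 CPM in liver (log2 fold change 1.63, SE 0.23, edgeR adjusted p = 0.000996). The protease Adamts1 had 360, 357 and 420 CPM in brain and 135, 91.5 and 123 CPM in liver. Abi3, an actin regulator, was lower in brain at 17, 25 and 11.6 CPM, against 124, 128 and 82.5 CPM in liver. App, the amyloid precursor, had 637, 668 and 695 CPM in brain and 532, 656 and 483 CPM in liver, with overlapping groups (log2 fold change 0.26, SE 0.19, edgeR adjusted p = 0.447).

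Immediate-early and heat shock genes, which many stimuli induce quickly, were higher in brain for 14 of 26 tested (53.8%, against 7.31% of all tested genes). The count was 9 without brain library 1, and the median log2 fold change in the reported fit was 1.91. Called lower were 0 by edgeR, or 1 without brain library 1, 2 by DESeq2 and 2 at an unadjusted p under 0.05. Nr4a1 had 166, 157 and 183 CPM in brain and 9.92, 18.7 and 13.1 CPM in liver (log2 fold change 3.60, SE 0.37, edgeR adjusted p = 0.000144). Jun had 573, 419 and 557 CPM in brain and 74.7, 106 and 186 CPM in liver. Hspb1, a small chaperone, had 274, 214 and 311 CPM in brain and 32.3, 61.7 and 55.6 CPM in liver. The brain digest alone went through the myelin step, and its part in these genes cannot be told apart from the tissue.

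Of 17 tested cell cycle genes 5 were called lower in brain (29.4%, against 8.61% of all tested genes, median log2 fold change −0.67). The count was 2 or 3 in each fit without 1 library, 3 with no filter on low counts and 2 under the replicate block. Ccnd1 and Ccnd2, cyclins of the G1 phase, had 39.1, 41.4 and 25.4 CPM and 54.4, 71.8 and 83.2 CPM in brain, against 314, 535 and 435 CPM and 485, 809 and 475 CPM in liver. Mki67, present in dividing cells alone, had 0, 1.35 and 0.136 CPM in brain and 18.7, 0.393 and 7.68 CPM in liver, with overlapping groups (edgeR adjusted p = 0.174), and was called lower by DESeq2. Of 18 glycolysis genes, Pdk4, which closes the entry of pyruvate into mitochondria, was the call (5.6%), at 6.39, 9.33 and 11.8 CPM in brain and 69.1, 57.6 and 82.2 CPM in liver. Of 30 genes of oxidative phosphorylation 1 was called (3.3%), lower in brain, and that call was lost without brain library 2 or 3 or liver library 2, with RLE factors, with library size alone and under the replicate block (median −0.74). At an unadjusted p under 0.05 there were 5 lower, and DESeq2 called 4.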

How the data were processed

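Endothelial RNA of 3 brain and 3 liver libraries was read from the raw counts per gene symbol that the authors deposited, per the file headers. The submitters' processing notes list TopHat, Bowtie2 and HTSeq 0.6.1 among other tools, and both mm9 and mm10, and do not tie them to an assay; strand use is not given in the sources used here. Of 24176 symbols, 22805 matched RefSeq (GRCm38.p6). Counts were scaled by TMM, filtered with filterByExpr and fitted with edgeR 4.0.16 (robust quasi-likelihood, R 4.3.3, limma 3.58.1), with 1 mean per tissue and Benjamini-Hochberg adjustment over 12049 genes. The code was tested on simulated data. DESeq2 1.42.0, other scalings and filters, a replicate block and the omission of each library were alternatives. Counting intervals and floors cover counting error only, at 95% and 3 counts. The gene lists and members were chosen with earlier results of these data known. Genes named are the 12 largest changes each way at a mean log2 CPM of 5 or more, the largest and the most abundant uncalled members of each list, genes at 0 in 1 tissue, fixed endothelial markers, and family pairs; the text gives part of them, and a few are not reported here. Marker genes, members of runs and genes whose calls were lost were named after their values were seen. Open chromatin, single-cell and lung data were not used, except that all 9 RNA libraries entered 1 alternative.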

Additional observations from a re-analysis of the deposited data

How the results depend on the processing

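More genes were called lower than higher in brain under every alternative in this paragraph except scaling by library size alone, which gave 976 higher and 932 lower. The 1919 calls became 1911 with RLE factors, 1918 without Rn45s and Malat1, 2580 with DESeq2 (98.6% of the calls kept), 1845 with no filter, 2059 with a stricter one, 1986 with no minimum fold, 2137 with all 9 libraries in 1 fit and 1939 without the robust option. With scaling by library size alone the median log2 fold change of all genes shifted by 0.161, and 51.2% of calls were higher in brain, against 45.9% in the reported fit. Leaving out 1 library gave 1391 to 1764 calls, 595 to 844 higher and 796 to 920 lower. These fits kept 68.9% to 82.3% of the 1919 calls. Whether same-numbered brain and liver libraries share an animal or a day is unknown. Their deviations correlated at −0.015, −0.004 and −0.004, against −0.014 to 0.023 for pairs with unlike numbers, which cannot show whether they were paired. The replicate block gave 1614 calls, 743 higher and 871 lower, keeping 79.6%. Under the block 2 cell cycle genes were called lower, against 5, and 2 neuron genes higher, against 4. Of 192 named genes that were called, 180 stayed called in all 16 alternatives that tested them, and 12 lost the call in at least 1. Many were named for their large changes, so these counts say little about the other calls. Of the named genes not called in the reported fit, 2 (Mki67 and Rn45s) were called in at least 1 alternative. None of the 207 named and tested genes changed sign. Depth limits the genes at 0 to lower bounds, and the cause of these shifts was not tested.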
